A study of Homo sapiens with 12 samples.

Results

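The genes described here are 10 heat shock chaperone genes of Hs 578T cells: HSPA1A, HSPA1B and HSPA8 of the HSP70 family, HSPH1, DNAJB1, HSP90AA1, HSP90AB1, HSPB1, HSPD1 and BAG3. They were taken by symbol from the count tables, which hold 55242 genes once rRNA genes are removed, and all 10 were found and passed the filter on low counts in every comparison. Hs 578T is a triple-negative breast cancer (TNBC) cell line of mesenchymal stem-like type, and the cells had been transduced with lentiviral vectors for GFP, the control, or for exogenous full-length NRF2, the transcription factor encoded by NFE2L2 that drives antioxidant genes. Both cell populations were kept for 8 h in a medium made without cystine (Cyss), to which 0.8 mM L-cystine was added for the groups with Cyss and none for the groups without, so that 4 groups of 3 libraries each were compared. All 4 groups carry a transgene, and no untransduced cells are among the samples used here. The labels number the libraries but do not say whether they came from separate cultures, so p-values measure the spread between these libraries, which may be technical.

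Heat shock proteins are chaperones that bind unfolded or partly folded proteins, keep them from aggregating and help them fold. HSP70 proteins do so in cycles of ATP hydrolysis that J-domain proteins start and nucleotide exchange factors end, HSP90 acts later on kinases, receptors and other clients, and small heat shock proteins hold unfolded proteins without ATP. Many of these genes are driven by the heat shock factor HSF1, which binds heat shock elements, arrays of the 5-base unit NGAAN in alternating orientation, when proteins misfold. HSPA8 and HSP90AB1 are known as the constitutive forms and HSPA1A, HSPA1B and HSP90AA1 as the inducible ones. One member does not match the description as cytosolic: HSPD1 encodes HSP60, the chaperonin of the mitochondrial matrix.

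Promoters of the members are shown because the heat shock element is the sequence they are known to share. RefSeq promoters on GRCh38.p14, each from 250 bases before to 50 bases after a start site, were found for all 10 members, with 16 start sites in all. Capitals mark matches to GAANNTTC or TTCNNGAA, the head-to-head and tail-to-tail arrangements of adjoining units, which can overlap by 3 bases. The first 4 belong to genes whose counts fell in NRF2 cells without Cyss, and the last, the second of 2 start sites of HSP90AA1, to a gene that was not called there.
HSPA1A promoter, chr6:31815293-31815592, plus strand: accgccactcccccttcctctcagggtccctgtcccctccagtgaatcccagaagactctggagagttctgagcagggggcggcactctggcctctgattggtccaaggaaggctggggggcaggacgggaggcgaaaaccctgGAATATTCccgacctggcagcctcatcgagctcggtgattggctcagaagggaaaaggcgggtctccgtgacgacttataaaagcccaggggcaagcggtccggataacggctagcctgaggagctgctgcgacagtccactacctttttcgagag
HSPA1B promoter, chr6:31827488-31827787, plus strand: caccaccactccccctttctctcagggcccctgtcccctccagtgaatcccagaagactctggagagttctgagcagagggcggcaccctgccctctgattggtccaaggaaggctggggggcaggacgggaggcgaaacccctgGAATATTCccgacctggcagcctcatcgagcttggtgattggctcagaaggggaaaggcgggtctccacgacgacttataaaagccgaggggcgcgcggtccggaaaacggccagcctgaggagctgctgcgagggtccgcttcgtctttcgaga
HSPA8 promoter, chr11:123062087-123062386, minus strand: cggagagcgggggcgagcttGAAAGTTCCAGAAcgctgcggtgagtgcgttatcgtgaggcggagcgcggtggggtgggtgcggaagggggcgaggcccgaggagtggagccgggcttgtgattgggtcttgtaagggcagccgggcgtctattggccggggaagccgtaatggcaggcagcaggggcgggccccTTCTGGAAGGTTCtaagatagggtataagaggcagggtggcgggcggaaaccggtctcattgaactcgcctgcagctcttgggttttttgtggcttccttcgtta
HSPB1 promoter, chr7:76302423-76302722, plus strand: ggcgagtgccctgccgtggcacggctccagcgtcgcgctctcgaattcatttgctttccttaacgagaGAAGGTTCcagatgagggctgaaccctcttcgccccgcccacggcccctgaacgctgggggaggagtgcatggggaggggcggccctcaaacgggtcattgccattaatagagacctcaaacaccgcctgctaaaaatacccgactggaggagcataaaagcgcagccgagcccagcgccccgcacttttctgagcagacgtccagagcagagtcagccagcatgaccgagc
HSP90AA1 promoter, chr14:102086995-102087294, minus strand: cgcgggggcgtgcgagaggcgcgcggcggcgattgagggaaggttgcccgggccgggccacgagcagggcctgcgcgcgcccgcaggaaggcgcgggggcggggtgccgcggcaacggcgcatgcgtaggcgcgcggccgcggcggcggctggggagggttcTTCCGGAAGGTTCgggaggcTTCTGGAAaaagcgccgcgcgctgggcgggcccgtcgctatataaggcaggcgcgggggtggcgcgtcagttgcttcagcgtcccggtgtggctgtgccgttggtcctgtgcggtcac

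At least 1 match was found in 9 of the 16 promoters, compared with 13.5% of 35116 RefSeq promoters of the same length. Counted by gene, 8 of the 10 members had a match at some start site. A gene had up to 3 start sites, so that count has no share over all promoters beside it. HSPA1A and HSPA1B each held 1 match, GAATATTC, which began at -106 and -105 bases from the start site in turn. HSPA8 held 4 matches, in overlapping pairs that began at -230 and -55 bases from its start site. Overlapping arrangements occurred in 4 of the 16 promoters, 1 each of HSPA8, HSP90AA1, HSP90AB1 and HSPD1, and in 0.490% of all promoters. No match lay in the promoters of HSPH1 and BAG3, which says only that these letters are not in this window. The core of the antioxidant response element, the site that NRF2 binds, searched as TGACNNNGC on both strands, was found in HSPB1, beginning 25 and 41 bases after its start site, and at 1 start site of HSP90AB1, and in 13.3% of all promoters. A match is a description of the sequence and not a measured binding site.

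The libraries held 27250993 to 44596870 reads on genes (median 32857536), and from 15.9 to 17.1% of the reads in a file were not assigned to a gene. In cells given Cyss, NFE2L2 stood at 3647 to 3842 normalized counts with GFP and at 6598 to 6940 with NRF2, and 4501 to 4655 and 7401 to 8396 without Cyss, higher in NRF2 cells in both media, as labelled. The mesenchymal markers VIM, FN1, CDH2, ZEB1 and CD44 were at 7152 normalized counts or more in every library, whereas EPCAM was at 0 in 9 of 12 libraries and CDH1 did not exceed 13.8. The keratins KRT8 and KRT18, also markers of epithelial origin, were detected in every library, at 151 to 233 and 773 to 1473 normalized counts. On the first principal component of all genes, GFP without Cyss replicate 3 stood apart from its group, at 3.61 against -12.0 and -9.21 for the other libraries of that group. On the second component NRF2 without Cyss replicate 1 stood apart, at 6.05 against -1.76 and -1.77, and 7.84% of its reads lay on no feature against 6.30 and 6.25% in the other libraries of that group. The calls of the members are given with and without each of these libraries. Since RNA was taken from whole cultures, fewer cells with a transcript and less transcript per cell cannot be told apart.

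The members were abundant. Together they took 0.741 to 0.804% of the reads on genes in GFP cells with Cyss, 0.702 to 0.720% in GFP cells without, 0.678 to 0.726% in NRF2 cells with and 0.592 to 0.628% in NRF2 cells without Cyss. The shares with and without Cyss did not overlap within either cell population. Levels of different genes were compared as normalized counts per kilobase of the canonical transcript in GENCODE 44. On that scale HSPA8 stood highest in all 4 groups, at 40065 ± 1713 (SD, n = 3) in GFP cells with Cyss, followed by HSP90AB1 at 26543 ± 880 and HSP90AA1 at 18186 ± 1351. HSPB1 (9404 ± 489), HSPD1 (5626 ± 131), DNAJB1 (2403 ± 53.5) and HSPH1 (1844 ± 28.9) came next in that group. BAG3, at 864 ± 15.0, was the lowest of these 8. Their order was the same in all 4 groups, and no neighbours in it had overlapping ranges. HSPA1A and HSPA1B were counted at 1010 ± 67.7 and 593 ± 21.4 per kilobase in GFP cells with Cyss, but most of their exon sequence is shared between them and its reads could not be counted, so neither has a place in this order.

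The count of a gene holds only reads that map to 1 place, by the usual setting of HTSeq, and this touches several members. Of the 75-base windows in the exons of HSPA1A, 73.8% occur without a mismatch in HSPA1B, and 70.2% of those of HSPA1B occur in HSPA1A, so reads from these windows could not be assigned and both levels are underestimates. HSPD1 had 25.8% of its windows elsewhere in the genome, HSPB1 11.7%, HSP90AA1 9.72%, HSP90AB1 8.34% and HSPA8 7.0%, whereas HSPH1, DNAJB1 and BAG3 had none. The read length is not given in the sources used here, and 75 bases were chosen for this check. On GENCODE 44, a long non-coding RNA on the same strand covers 920 bases of the exon of HSPA1B.

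In GFP cells, which address the effect of Cyss deprivation alone, 2 HSP70 genes were called lower without Cyss. HSPA1A fell by 26.4%, HSPA1B fell by 22.9%, and no member rose. The 10 members took 2 calls lower and 0 higher, where a call is an adjusted p under 0.1 by edgeR's quasi-likelihood test and a log2FC above 0.32 in size, compared with 0.533% of the 17452 genes tested called lower and 1.57% called higher. An adjusted p under 0.1 at any fold was reached by 4 members, all lower, against 2.81% of all genes. All 10 log2FCs were below 0, with a median of -0.10 against 0.0015 over all genes.

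HSPA1A and HSPA1B, on chromosome 6 at chr6:31783320-31785723 and chr6:31795515-31798031 (hg19, plus strand), are neighbouring single-exon genes that encode almost the same HSP70 protein, the main inducible chaperone of the cytosol. In GFP cells, HSPA1A was counted at 2558, 2469 and 2243 (normalized) with Cyss and 1900, 1852 and 1606 without. HSPA1B had 1528, 1517 and 1429 with Cyss and 1172, 1179 and 1100 without. Every library without Cyss lay below every library with Cyss for both genes. The log2FC was -0.44 ± 0.0654 (SE; adjusted p = 0.00174) for HSPA1A and -0.38 ± 0.0501 (adjusted p = 6.72e-04) for HSPA1B. Without GFP without Cyss replicate 3, these were -0.37 (adjusted p = 0.00378) and -0.34 (adjusted p = 0.00328), and 2 members were called. With the counts of both genes summed, the log2FC was -0.42.

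HSPA8, at chr11:122928197-122933938 on the minus strand, encodes HSC70, the constitutive HSP70. It had 86243, 93258 and 92620 normalized counts with Cyss and 79220, 76121 and 74003 without, and the groups did not overlap. Its log2FC of -0.25 ± 0.0378 passed the adjusted p (0.00215) but not the fold. HSPH1, at chr13:31709110-31736525 on the minus strand, encodes HSP110, a nucleotide exchange factor of HSP70. It had 9705, 9502 and 9798 normalized counts with Cyss and 8616, 8690 and 8921 without, a log2FC of -0.15 ± 0.0344 (adjusted p = 0.0367). Without GFP without Cyss replicate 3, HSPA8 was at -0.22 (adjusted p = 0.0117) and HSPH1 at -0.16 (adjusted p = 0.0537). Counts of these 4 genes, and also of HSPD1 and BAG3, were lower in all 3 libraries without Cyss than in any with Cyss. The share of all genes with groups apart in this way was not counted.

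The other 6 members did not reach an adjusted p of 0.1 in GFP cells. DNAJB1, the J-domain partner of HSP70 (chr19:14625581-14671203, minus strand), had a log2FC of -0.04 ± 0.0363. HSP90AA1 (chr14:102547079-102606036, minus strand) and HSP90AB1 (chr6:44213903-44221625, plus strand), the cytosolic HSP90 genes, had -0.02 ± 0.0440 and -0.04 ± 0.0331. HSPB1, the small heat shock protein HSP27 (chr7:75931990-75933612, plus strand), had -0.05 ± 0.0527. HSPD1 (chr2:198351308-198381461, minus strand) and BAG3, a co-chaperone that hands HSP70 clients to autophagy (chr10:121410892-121437331, plus strand), had -0.10 ± 0.0363 and -0.10 ± 0.0423. The adjusted p-values of these 6 lay between 0.164 for HSPD1 and 0.891 for HSP90AA1. The 3 libraries of HSP90AA1 without Cyss were at 58155, 58137 and 58112 normalized counts, close together within the 55166 to 63575 of the group with Cyss.

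In NRF2 cells, 4 members were lower without Cyss. HSPA1A fell by 37.7%, HSPA1B fell by 37.6%, HSPA8 fell by 22.2% and HSPB1 fell by 21.8%. The calls numbered 4 lower and 0 higher among the 10, against 5.14% of 17266 genes called lower and 6.81% called higher. At any fold, 5 members were lower with an adjusted p under 0.1, against 13.8% of all genes. The median log2FC of the members was -0.09, and that of all genes -0.01. Of all calls in this comparison 43.0% were lower, and 59.9% when libraries were scaled by their total alone.

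In NRF2 cells, HSPA1A stood at 2640, 2525 and 2565 normalized counts with Cyss and 1784, 1646 and 1394 without, and HSPA1B had 1753, 1505 and 1637 with and 1059, 983 and 1015 without. The groups did not overlap for either gene. Their log2FCs were -0.68 ± 0.0715 (adjusted p = 6.73e-06) and -0.68 ± 0.0623 (adjusted p = 1.60e-06). The ratio of HSPA1A to HSPA1B counts ranged from 1.37 to 1.68 over all 12 libraries and overlapped between all 4 groups, with 1.68, 1.67 and 1.37 in NRF2 cells without Cyss.

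HSPA8 had 81306, 84249 and 85832 normalized counts with Cyss and 62312, 66909 and 66474 without. Its log2FC of -0.36 ± 0.0442 had an adjusted p of 2.89e-05. HSPB1 had 8077, 7281 and 7705 with Cyss and 6450, 5792 and 5822 without, a log2FC of -0.35 ± 0.0547 (adjusted p = 2.79e-04). The groups did not overlap for HSPA8 or HSPB1. Without NRF2 with Cyss replicate 1, the log2FC of HSPB1 was -0.32 with an adjusted p of 0.00372, just short of the fold that a call needs. Without NRF2 without Cyss replicate 1, the 4 calls were HSPA1A at -0.76 (adjusted p = 2.68e-08), HSPA1B at -0.71 (adjusted p = 1.35e-07), HSPA8 at -0.33 (adjusted p = 3.28e-06) and HSPB1 at -0.40 (adjusted p = 3.10e-06).

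DNAJB1 had 4926, 4965 and 4993 normalized counts with Cyss and 4332, 4476 and 4638 without. Its log2FC of -0.15 ± 0.0442 had an adjusted p of 0.0268 and missed the fold. The other 5 members gave log2FCs from -0.04 for HSPD1 to 0.03 for HSP90AA1, with adjusted p-values from 0.592 to 0.972. HSPH1 had 8132, 8656 and 8510 normalized counts with Cyss and 8166, 8544 and 8668 without, with overlapping groups, at a log2FC of 0.0028 ± 0.0448. The signs of HSPH1 and HSP90AA1 turned when libraries were scaled by their total alone, to -0.06 and -0.03.

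**Figure D1:**
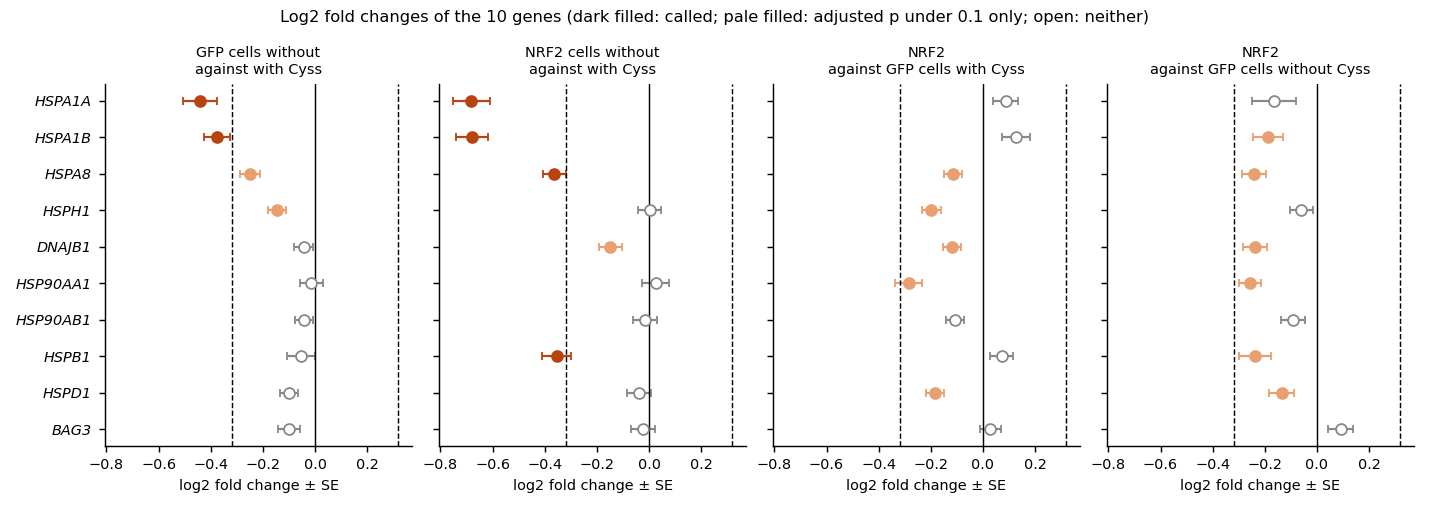
Log2FC ± SE (horizontal axes) of the 10 genes in the 4 comparisons, with dashed lines at ±0.32. Dark filled points were called, pale filled points had an adjusted p under 0.1 only, and open points neither. Calls appear in the 2 comparisons of media, with 2 for GFP and 4 for NRF2 cells, and in neither comparison of cell populations.

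The interaction of medium and cell population tested whether the response to Cyss deprivation differed between NRF2 and GFP cells. At an adjusted p under 0.1 the signed log2 response was lower in NRF2 cells for 2 members and higher for 1, against 6.13% and 8.97% of 17674 genes. For HSPB1 the log2FC went from -0.05 in GFP cells to -0.35 in NRF2 cells, a difference of -0.30 ± 0.0813 (adjusted p = 0.0287). In GFP cells HSPB1 stood at 6909, 7666 and 7347 normalized counts with Cyss and 7035, 7556 and 6543 without, so its groups overlapped there. For HSPA1B the response went from -0.38 to -0.68, a difference of -0.30 ± 0.0802 (adjusted p = 0.0248). For HSPA1A the difference was -0.24 ± 0.106 and was not called (adjusted p = 0.168), and the summed counts of both genes gave -0.26 (adjusted p = 0.0634). For HSPH1 the log2 response went from -0.15 in GFP cells to 0.0028 in NRF2 cells, a difference of 0.15 ± 0.0544 (adjusted p = 0.0919). This call held without NRF2 without Cyss replicate 1, without GFP with Cyss replicate 2 or without GFP without Cyss replicate 3, and was lost in the other 9 of 12 fits that each left out 1 library, with adjusted p-values from 0.118 to 0.237. Without GFP without Cyss replicate 3, 3 members were called lower, with HSPA1A at -0.31 (adjusted p = 0.0608), and likewise without NRF2 without Cyss replicate 1, with HSPA1A at -0.32 (adjusted p = 0.0555). Over all genes, 40.6% of the calls were lower, and 63.8% when libraries were scaled by their total alone. That scaling also called HSPA1A, HSPA8 and DNAJB1 lower and did not call HSPH1. With no filter on low counts HSPA1A was called (-0.24; adjusted p = 0.0384) and HSPH1 was not (adjusted p = 0.209).

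The comparison of NRF2 with GFP cells in 1 medium addresses the effect of exogenous NRF2, and no member passed the fold. With Cyss, 0 of 10 members were called higher or lower in NRF2 against GFP cells, against 1.36% of 17449 genes called higher and 0.201% called lower. At an adjusted p under 0.1 and any fold, 5 members were lower (HSPA8, HSPH1, DNAJB1, HSP90AA1 and HSPD1), against 2.28% of all genes, and 0 were higher. HSP90AA1, the inducible HSP90, stood at 55166, 57372 and 63575 normalized counts with GFP and at 44248, 49713 and 50636 with NRF2, without overlap. Its log2FC was -0.28 ± 0.0519 (adjusted p = 0.00508), and it passed the fold without GFP with Cyss replicate 1 (-0.33) or without NRF2 with Cyss replicate 3 (-0.32). HSPH1 had a log2FC of -0.20 ± 0.0356 and HSPD1 of -0.18 ± 0.0354, HSPD1 going from 12446, 12473 and 12969 normalized counts in GFP cells to 10770, 11465 and 11118 in NRF2 cells. HSPA8 and DNAJB1 were at -0.11 ± 0.0362 and -0.12 ± 0.0353. The inducible HSPA1A and HSPA1B gave 0.09 ± 0.0478 and 0.13 ± 0.0533, with overlapping groups and adjusted p-values of 0.339 and 0.206.

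Without Cyss, 0 of 10 members were called in NRF2 against GFP cells, against 5.98% of 17297 genes called higher and 4.09% called lower. Of all calls 40.6% were lower, and 53.3% with scaling by the library total alone. At any fold, 6 members were lower at an adjusted p under 0.1 (HSPA1B, HSPA8, DNAJB1, HSP90AA1, HSPB1 and HSPD1), against 14.7% of all genes. HSP90AA1 again had the most negative log2FC among the members, -0.26 ± 0.0415 (adjusted p = 0.00171), with 58112 to 58155 normalized counts in GFP cells and 47863, 49066 and 50428 in NRF2 cells. HSPA8 was at -0.24 ± 0.0459, HSPB1 at -0.24 ± 0.0615 and DNAJB1 at -0.24 ± 0.0455, with non-overlapping groups for each. HSPA1B was at -0.19 ± 0.0567 (adjusted p = 0.0348) and HSPA1A at -0.16 ± 0.0860 (adjusted p = 0.198). BAG3 was the member with a log2FC above 0, at 0.09 ± 0.0479 (adjusted p = 0.199), with 2232, 2231 and 2216 normalized counts in NRF2 cells and 2000, 2068 and 2145 in GFP cells. Leaving out GFP without Cyss replicate 3 gave 0 calls, with HSPA1A then at an adjusted p of 0.0916 and HSPD1 at 0.175. Leaving out NRF2 without Cyss replicate 1 also gave 0 calls, with HSPA1A at 0.0663 and HSPD1 at 0.135, so which of these 2 genes was under 0.1 rested on either library. The comparisons with and without Cyss share no library with each other, but each shares its libraries with the comparisons of media above.

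The ratio of HSP90AA1 to HSP90AB1 counts followed the cell population. In GFP cells it was 0.843, 0.842 and 0.909 with Cyss and 0.885, 0.896 and 0.866 without, and in NRF2 cells 0.726, 0.782 and 0.785 with Cyss and 0.808, 0.783 and 0.771 without. All 6 ratios in NRF2 cells lay below all 6 in GFP cells. With Cyss, HSP90AB1, the constitutive form, stood at 65435, 68107 and 69906 normalized counts with GFP and at 60969, 63547 and 64538 with NRF2 (log2FC -0.11 ± 0.0348; adjusted p = 0.106), and its log2FC was -0.09 ± 0.0464 without Cyss (adjusted p = 0.184).

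Other chaperone genes were counted in 8 lists with 83 genes. In GFP cells without Cyss, 2 of the 82 that were tested rose and 2 fell, against 1.57% and 0.533% of all genes. In NRF2 cells 2 rose and 5 fell, against 6.81% and 5.14% of all genes, so that the share that fell was near that of all genes and the share that rose was below it. Without NRF2 without Cyss replicate 1, 4 rose and 6 fell. The genes that rose belong to the mitochondrial list: GRPEL2, an exchange factor of mitochondrial HSP70, had a log2FC of 0.49 ± 0.0624 (adjusted p = 4.34e-04) in GFP cells and 0.71 ± 0.0667 (adjusted p = 2.29e-06) in NRF2 cells, and was at 0.43 (adjusted p = 0.00104) in GFP cells without GFP without Cyss replicate 3. LONP1, a protease of the mitochondrial matrix, had 0.35 ± 0.0450 and 0.35 ± 0.0537. LONP1 fell short of the fold without GFP without Cyss replicate 2 (0.31) in GFP cells, and without NRF2 with Cyss replicate 2 (0.30) or NRF2 without Cyss replicate 1 (0.32) and by library size only (0.29) in NRF2 cells. GRPEL2 went from 842 to 921 normalized counts with Cyss to 1187 to 1371 without in GFP cells. HSPB8, a small heat shock protein that works with BAG3, was the gene of the heat-induced list that fell in both populations, by 0.33 on the log2 scale (SE 0.0612; adjusted p = 0.00976) in GFP cells and by 0.42 (SE 0.0863; adjusted p = 0.00271) in NRF2 cells. In GFP cells it fell short of the fold without GFP without Cyss replicate 3 (-0.30), GFP with Cyss replicate 1 (-0.31) or GFP with Cyss replicate 2 (-0.30). In NRF2 cells HSPB8 was at 667 to 695 normalized counts with Cyss and 425 to 565 without, and its call was not checked by leaving out libraries. CHORDC1, an HSP90 co-chaperone, fell in GFP cells (log2FC -0.32 ± 0.0746; adjusted p = 0.0343), a call that was lost without GFP with Cyss replicate 1 (-0.21), GFP without Cyss replicate 1 (-0.31) or GFP without Cyss replicate 2 (-0.31). Its libraries were at 2729 to 3415 normalized counts with Cyss and 2319 to 2474 without. In NRF2 cells HSPB3 and HSPA2 of the list of other HSP70 and small heat shock proteins fell, as did HSF4 (-0.43 ± 0.151; adjusted p = 0.0560) and BAG2 (-0.36). The call of BAG2 was also not checked by leaving out libraries. HSPB3, at 62.5 to 71.9 normalized counts with Cyss and 29.9 to 39.3 without, had an adjusted p of 9.18e-04. HSPA2, a testis-enriched HSP70, went from 154 to 171 normalized counts with Cyss to 105 to 114 without (log2FC -0.56; adjusted p = 0.00204). HSF4, at most 128 normalized counts in any library, was not called without NRF2 with Cyss replicate 1 (-0.38) or 3 (-0.33), without NRF2 without Cyss replicate 2 (-0.35), by DESeq2 (adjusted p = 0.106) or in 1 fit of all 12 libraries (adjusted p = 0.116).

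By list, the 22 heat-induced genes had a median log2FC of -0.08 (GFP cells) and -0.13 (NRF2 cells) without Cyss, and the 8 tested genes of other HSP70 and small heat shock proteins -0.11 and -0.23, against 0.0015 and -0.01 over all genes. The 15 cochaperones of HSP70 and HSP90 had -0.02 and 0.02, the 9 cytosolic J-domain proteins 0.02 and -0.01, and the 8 CCT chaperonin subunits -0.01 and -0.02. The 6 prefoldin subunits had 0.06 and -0.11, the 4 heat shock factors and regulators 0.01 and -0.14, and the 10 mitochondrial chaperones and proteases 0.04 and 0.10. In NRF2 against GFP cells the 8 CCT subunits, which fold actin and tubulin, had median log2FCs of -0.10 with Cyss and -0.11 without, with 0 calls. In each medium the groups of some of these subunits overlapped. In NRF2 against GFP cells, the calls in the 83 genes were HSPB3, higher with Cyss (0.78 ± 0.174; not called without NRF2 with Cyss replicate 1, 0.72), and HSPA2, lower without (-0.38 ± 0.107), against 1.36% of all genes called higher with Cyss and 4.09% called lower without. Without GFP without Cyss replicate 3, 2 list genes were called lower. In the interaction, the log2 response in NRF2 cells minus that in GFP cells was called above 0 for 2 list genes. These were BAG6 (0.18 ± 0.0529) and DNAJB4 (0.24 ± 0.0831). It was called below 0 for 6, led by HSPB3 (-0.76 ± 0.275), HSPA2 (-0.41 ± 0.131) and PFDN5 (-0.25 ± 0.0805). Mean normalized counts of DNAJB4 went from 2510 with Cyss to 2144 without in GFP cells, and from 2383 to 2403 in NRF2 cells. Those of HSPB3 went from 38.6 to 32.9 in GFP cells and from 66.6 to 33.3 in NRF2 cells. Over all genes 8.97% were called higher and 6.13% lower, so the list's count was below that share for higher calls and near it for lower ones. Without NRF2 without Cyss replicate 1, 4 list genes were called higher and 5 lower. Of 12 fits that each left out 1 library, these calls were lost in 2 for BAG6, 8 for DNAJB4, 9 for HSPB3, 4 for HSPA2 and 5 for PFDN5. BAG6 and DNAJB4 were not called by library size only (adjusted p = 0.111 and 0.146), HSPA2 was not called by DESeq2 (0.140), and neither HSPB3 (0.101) nor HSPA2 (0.166) was called with no filter.

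HSF1, the main regulator of the heat shock genes, had a log2FC of 0.03 ± 0.0463 without Cyss in GFP cells (adjusted p = 0.787), which turned to -0.0019 without GFP with Cyss replicate 1, and 0.12 ± 0.0507 in NRF2 cells (adjusted p = 0.0955). It was at 2813 to 3137 normalized counts in GFP cells and 3024 to 3486 in NRF2 cells. HSF2 gave -0.11 ± 0.0626 and -0.17 ± 0.0673 (adjusted p = 0.378 and 0.0880). Neither was called in any comparison. In NRF2 against GFP cells without Cyss both passed the adjusted p but not the fold, with HSF1 at 0.17 (adjusted p = 0.0324) and HSF2 at -0.19 (adjusted p = 0.0755). Of 10 chaperones of the endoplasmic reticulum, 0 were called in the 4 comparisons. In the interaction 1 was called higher and 0 lower, against 8.97% and 6.13% of all genes. HSPA5 (BiP), the HSP70 of that compartment, gave 0.20 ± 0.0317 in GFP cells (adjusted p = 0.00239) and 0.09 ± 0.0488 in NRF2 cells, and HSP90B1, its HSP90, 0.13 ± 0.0367 and 0.04 ± 0.0487. HYOU1, the HSP110 of that compartment, gave 0.05 ± 0.0360 and 0.18 ± 0.0415.

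Likeness of pattern was measured as Pearson's r of log2 normalized counts over the 12 libraries, which share 4 groups, among 12287 genes with a mean of at least 100, and is given as a description. HSPA8 was most like DNAJA1 (r = 0.986), a J-domain partner of HSP70, with DNAJA1 and STIP1 of the chaperone lists among its 20 nearest genes. HSP90AB1 was most like HSP90AB3P (r = 0.988), a pseudogene copy that can share its reads, and had CCT4 and AHSA1, an activator of HSP90, among its 20. HSPH1 and HSPD1 were nearest to each other (r = 0.939). HSPA1A was most like ZSCAN31 (0.975) and HSPA1B most like TRIP6 (0.978), and each of the pair was among the 20 nearest genes of the other. The nearest genes of the remaining members were CDC20 for DNAJB1 (0.979), RP11-1033A18.1 for HSP90AA1 (0.980), DAGLB for HSPB1 (0.990) and DNAJC5 for BAG3 (0.932).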

How the data were processed

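RNA-seq was analysed in 12 libraries of Hs 578T cells. Per the methods and labels, the authors aligned the single-end reads with TopHat 2.1.0 (hg19), counted those on exons with HTSeq 0.11.2 ignoring strand, and deposited raw counts for each gene symbol. The annotation behind the counts is not given in the sources used here. Of 55765 symbols, 523 named as rRNA were removed, as were the 5 HTSeq counters of unassigned reads. For each of 4 comparisons, genes whose mean normalized count reached 10 in 1 of the groups were retained, normalized by TMM and tested with edgeR 4.0.16 (quasi-likelihood test, Benjamini-Hochberg over all genes; 6 libraries). The interaction used all 12 libraries. Normalized counts printed per library were scaled by TMM over the 12 libraries. R 4.3.3 was used with DESeq2 1.42.0 (an alternative), and Python with matplotlib 3.10.9. The fits were tested on simulated data.

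Reads that map to several places were not counted, which lowers the counts of near-identical genes. The members and the gene lists were chosen with earlier results of these data known. Text names all members, HSF1, HSF2, per comparison the 3 called list genes with the largest log2FC in each direction (BAG2 was named in addition, after its value was seen), HSPA5, HSP90B1 and HYOU1, NFE2L2, markers, and the gene nearest in pattern to each member. Alternatives were other normalizations, filters and thresholds, DESeq2's Wald test, a replicate block, 1 fit of all libraries, leaving out each library and, added after the data were seen, summing HSPA1A and HSPA1B. Positions come from GENCODE 44 on GRCh37 (hg19).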

Additional observations from a re-analysis of the deposited data

Results flagged for a closer look

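The response to Cyss deprivation differed between NRF2 and GFP cells for 3 members by edgeR's test of the interaction, which is what brings them here. For HSPA1B the log2 response in NRF2 cells minus that in GFP cells was -0.30, for HSPB1 it was -0.30, and for HSPH1 it was 0.15. HSPA1B and HSPB1 were called in all 12 fits that each left out 1 library, with differences from -0.36 to -0.26 and from -0.35 to -0.25. HSPH1 was called in 3 of 12, with differences from 0.12 to 0.17.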

How the results depend on the processing

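Of 800 values of the members under alternatives, 748 kept their sign and their side of the threshold. The alternatives that changed only a threshold used the log2FCs of the main fit, so signs could not turn in them. Leaving out each library in turn gave 2 members lower in GFP cells without Cyss in every fit, 3 to 4 in NRF2 cells, 0 to 1 in NRF2 against GFP cells with Cyss, 0 without, and in the interaction 0 to 1 higher and 2 to 3 lower. Without a fold threshold the members lower numbered 4 in GFP cells, 5 in NRF2 against GFP cells with Cyss and 6 without. In the interaction, the higher member was lost (0) with scaling by library size only, with no filter on low counts and at an adjusted p under 0.05, and library size only gave 5 lower. No filter on low counts gave 3 lower. The cause was not tested. Signs turned in values close to 0 that were never called. By library size only these were HSPH1 (-0.056) and HSP90AA1 (-0.033) in NRF2 cells, and HSP90AA1 (-0.011) and HSP90AB1 (-0.025) in the interaction. On leaving out 1 library, values ranged from -0.0019 to 0.064 for HSF1 and from -0.055 to 0.044 for HSP90AA1 in GFP cells, from -0.021 to 0.030 for HSPH1, -0.031 to 0.061 for HSP90AA1 and -0.049 to 0.023 for HSP90AB1 in NRF2 cells, and from -0.023 to 0.084 for HSP90AA1 and -0.0072 to 0.064 for HSP90AB1 in the interaction.

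Libraries share replicate numbers across groups, and the labels do not say whether same-numbered libraries were paired. Deviations from the group means had correlations from -0.03 to 0.14 for the same number and from -0.15 to 0.08 for different numbers. With 3 libraries per group these values cannot decide whether there was a pairing. With the number as a block, the members lower stayed at 2 in GFP cells, 4 in NRF2 cells and 0 between the cell populations in both media, with 0 higher in each, and the interaction gave 1 higher and 3 lower, HSPA1A being added (-0.24; adjusted p = 0.0360). The list genes lower in GFP cells numbered 1 in place of 2, CHORDC1 falling short of the fold that a call needs.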
